A study of Homo sapiens with 6 samples.

Results

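The 36 genes described here encode the enzymes of glycolysis, the transporters that carry its substrate and its product, other genes known to be induced by low oxygen, and the proteins that sense oxygen. They were taken by gene symbol from a table of 60617 genes and sorted by role into 17 glycolytic enzymes, 3 bifunctional enzymes of the PFKFB family, 4 sugar and lactate transporters, 8 other hypoxia targets and 4 genes of oxygen sensing. RNA was sequenced from A549, an established human lung cancer line, in 2 groups of 3 libraries: wild-type cells, and A549 cells with a knockout of YTHDF1, which encodes a protein that binds N6-methyladenosine in mRNA. Both groups were grown in the same serum-containing RPMI medium, and no label gives a low-oxygen treatment for either, so these genes were measured in ordinary culture. The labels call the libraries biological replicates but do not say whether they came from separate clones or cultures, so p-values measure only the spread between these libraries.

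Glycolysis splits glucose into pyruvate in a chain of cytosolic reactions, and lactate dehydrogenase turns pyruvate into lactate, which leaves the cell with a proton through monocarboxylate transporters. Many of these genes are direct targets of the hypoxia-inducible factors, dimers of an oxygen-labile alpha subunit (HIF1A or EPAS1) with ARNT. In oxygen, prolyl hydroxylases of the EGLN family mark the alpha subunits for destruction, so HIF activity is mainly set at the level of protein, which RNA-seq does not measure. EGLN1 and EGLN3 are themselves HIF targets, and MYC also acts on many of the glycolytic enzymes.

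Libraries held between 27238817 and 40675628 counts. YTHDF1 itself was at 98.0, 104 and 96.4 CPM (read counts scaled to a common library total, with TMM factors) in wild-type cells and at 48.6, 48.6 and 47.1 CPM in knockout cells, so its RNA was lower and still present. Mitochondrially encoded mRNAs, a sign of RNA quality, took 5.76% to 5.92% of the counts in wild-type libraries and 3.72% to 3.98% in knockout libraries, and their part in the differences below was not tested. Markers of epithelial cells and of A549 summed to between 5724 and 6121 CPM in wild-type and between 5597 and 6014 CPM in knockout libraries, although EPCAM was only at 1.61 to 2.56 CPM over all 6. Those close sums held genes that moved both ways, with 5 of the 9 higher and 2 lower: CDH1 rose 3.38-fold and KRT19 1.43-fold, while AKR1B10 fell 2.08-fold and NQO1 1.52-fold. Of 9 leukocyte markers, CD3E and CD2 were at 0 in every library. Their sum was 14.2 to 15.3 CPM in wild-type and 8.16 to 8.50 CPM in knockout libraries. Almost all of it came from the 2 that were tested, CD14, which fell 3.23-fold, and ITGAM, which rose 1.45-fold. Endothelial markers summed to at most 1.27 CPM, and the erythroid markers HBB and HBA1 were at 0 throughout. Fibroblast markers summed to 40.2 to 41.9 CPM in wild-type and 46.5 to 49.7 CPM in knockout libraries, mostly COL1A1, but the list did not move as its sum did. Of its 7 genes 5 were tested, and COL1A1 and LUM rose while PDGFRB (log2 fold change -3.47), COL3A1 (-1.27) and THY1 (-1.20) fell, for a median of -1.20. PDGFRB was kept for testing only through its wild-type libraries, so its fall is in part set by the filter on low counts. The part of these marker differences in the results below was not tested.

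All 36 genes passed the filter on low counts and were among the 18505 tested. In the knockout, 16 of them rose and 11 fell (edgeR, quasi-likelihood F test, Benjamini-Hochberg adjusted p below 0.05). Of all genes tested, 53.5% passed, 27.2% higher and 26.3% lower, so a change in a member is in itself no rarity in these data. The pathway enzymes and the other hypoxia targets had different counts. Among the 17 enzymes, 4 rose and 7 fell, with a median log2 fold change (knockout minus wild type) of -0.07. Among the 8 other hypoxia targets, 6 rose and 0 fell, with a median of 0.52, and 3 of the 4 transporters rose, with a median of 1.11. The median over all genes tested was 0.0011. The difference between the roles was not tested, since the genes of a role are not replicates. With a fold change of 1.5 built into edgeR's test, 1 enzyme rose and 3 fell, and 2 of the hypoxia targets rose. Under that test 8 of the 36 genes rose and 4 fell, beside 14.0% of all genes tested, 8.5% higher and 5.47% lower. For 28 of the 36 genes the 2 groups of libraries were fully separate, 17 with the knockout higher and 11 with it lower, while 58.9% of all genes tested were separate, 29.8% higher and 29.1% lower.

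**Figure D1:**
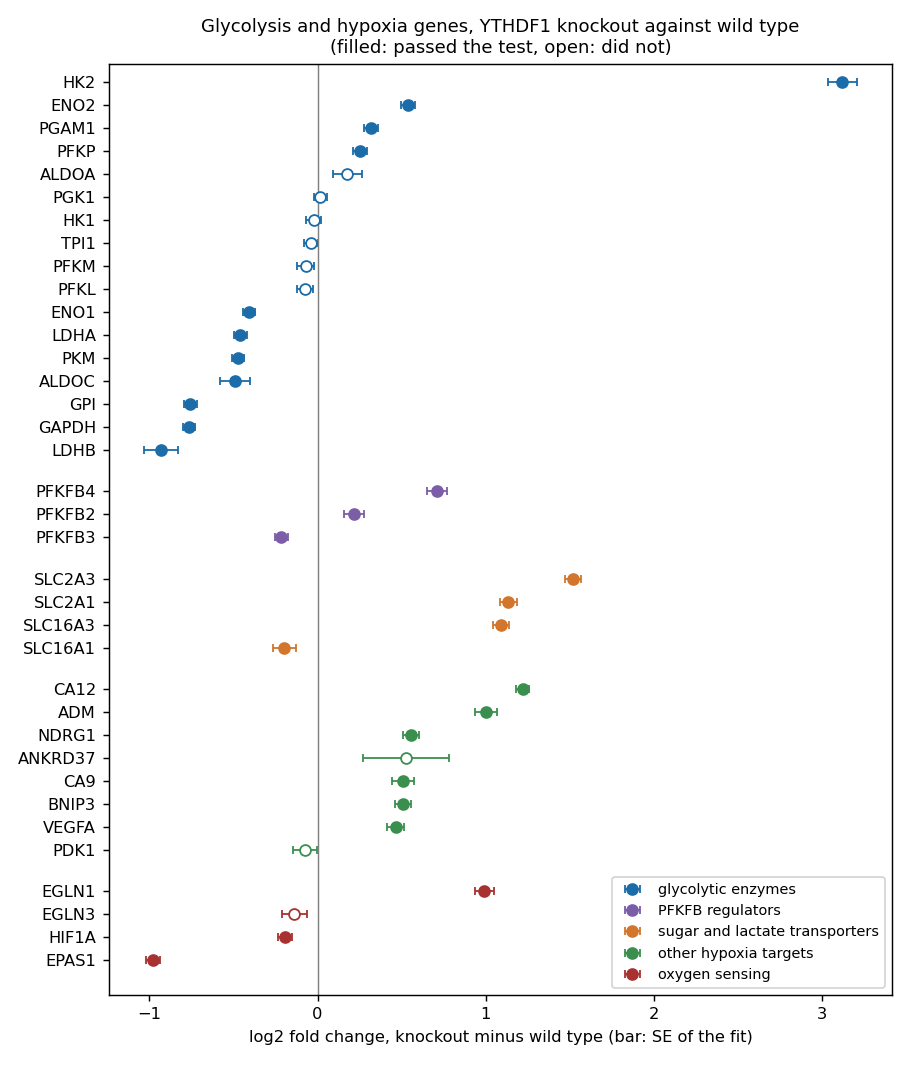
Log2 fold change of each gene in knockout against wild-type cells (x axis), grouped by role, with the standard error of the fit as a bar; filled points passed edgeR's test and open points did not. HK2 stands at 3.12, the transporters SLC2A3, SLC2A1 and SLC16A3 lie above 1, and GPI, GAPDH and LDHB are the lowest enzymes, while EPAS1 is at -0.98.

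Promoter windows are shown for 5 genes that the results below turn on: HK2, SLC2A1 and EGLN1, which rose, and GAPDH and EPAS1, which fell. Each window is RefSeq's, on GRCh38.p14, from 250 bases before to 50 bases after an annotated start, printed 5′ to 3′ on the gene's strand. Capitals mark the core of the hypoxia response element, searched as ACGTG and as GCGTG on both strands, so that CACGT and CACGC in capitals are matches on the opposite strand.
HK2 first start, chr2:74833877-74834176, plus strand: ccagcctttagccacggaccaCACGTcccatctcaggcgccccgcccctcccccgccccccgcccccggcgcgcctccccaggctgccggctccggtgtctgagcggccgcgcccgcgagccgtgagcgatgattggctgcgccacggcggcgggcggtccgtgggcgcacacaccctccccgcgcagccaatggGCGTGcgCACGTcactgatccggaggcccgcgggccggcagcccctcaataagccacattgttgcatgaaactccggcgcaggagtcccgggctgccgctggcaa
HK2 second start, chr2:74834920-74835219, plus strand: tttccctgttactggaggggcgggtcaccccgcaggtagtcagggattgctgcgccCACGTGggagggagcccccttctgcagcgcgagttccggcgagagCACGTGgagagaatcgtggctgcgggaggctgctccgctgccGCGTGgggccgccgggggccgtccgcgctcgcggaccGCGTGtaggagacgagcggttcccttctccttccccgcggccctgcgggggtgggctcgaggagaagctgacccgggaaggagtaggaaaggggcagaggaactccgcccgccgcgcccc
SLC2A1, chr1:42958819-42959118, minus strand: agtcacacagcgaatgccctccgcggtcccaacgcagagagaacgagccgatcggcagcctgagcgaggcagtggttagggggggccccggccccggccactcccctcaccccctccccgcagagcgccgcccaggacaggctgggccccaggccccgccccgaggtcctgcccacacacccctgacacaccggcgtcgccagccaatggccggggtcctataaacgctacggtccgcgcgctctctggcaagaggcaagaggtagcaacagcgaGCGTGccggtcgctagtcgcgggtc
EGLN1, chr1:231422238-231422537, minus strand: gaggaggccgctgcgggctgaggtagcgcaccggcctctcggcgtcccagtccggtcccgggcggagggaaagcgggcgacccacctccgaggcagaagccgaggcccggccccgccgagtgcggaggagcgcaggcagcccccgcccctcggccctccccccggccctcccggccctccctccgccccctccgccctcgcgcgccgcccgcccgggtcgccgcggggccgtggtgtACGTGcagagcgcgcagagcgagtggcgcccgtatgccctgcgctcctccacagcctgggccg
GAPDH, chr12:6535014-6535313, plus strand: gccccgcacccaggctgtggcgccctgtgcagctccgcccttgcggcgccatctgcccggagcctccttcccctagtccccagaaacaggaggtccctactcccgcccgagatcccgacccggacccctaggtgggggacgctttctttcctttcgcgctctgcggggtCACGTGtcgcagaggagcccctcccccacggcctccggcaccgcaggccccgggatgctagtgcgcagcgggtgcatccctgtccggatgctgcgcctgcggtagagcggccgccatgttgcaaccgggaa
EPAS1, chr2:46297157-46297456, plus strand: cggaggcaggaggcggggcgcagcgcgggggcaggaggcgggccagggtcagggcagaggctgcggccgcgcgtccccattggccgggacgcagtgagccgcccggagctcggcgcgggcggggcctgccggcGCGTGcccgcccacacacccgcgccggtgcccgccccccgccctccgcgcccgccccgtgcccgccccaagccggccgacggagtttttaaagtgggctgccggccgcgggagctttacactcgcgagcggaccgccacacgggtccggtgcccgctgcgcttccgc
All of these windows held the core at least once, whichever way the gene went. The second HK2 window and the GAPDH window held it as the palindrome CACGTG, the E-box that MYC and related factors can bind, in which ACGTG matches on both strands.

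RefSeq windows matched 31 of the 36 genes, with 58 windows, since several genes have more than 1 start and windows of 1 gene can overlap. No window was used for NDRG1, SLC2A3, PFKFB2, SLC16A1 and VEGFA. ACGTG or GCGTG occurred in 39 of the 58 windows (67.2%) and in 48.4% of all 35116 windows. By the test on RNA, the share was 75% of the 20 windows of genes that rose and 92.3% of the 13 windows of genes that fell. It was 48.0% of the 25 windows of genes that did not pass. Counted by gene, 11 of the 12 that rose, 10 of the 10 that fell and 8 of the 9 that did not pass had at least 1 window with a core. Among all genes with a window, 14318 of 27305 did. The shares of windows thus depend on how many windows each gene has. Both genes that rose and genes that fell therefore carried these letters near their starts. ACGTG alone was in 37.9% of the members' windows and in 21.4% of all windows, and GCGTG alone in 41.4% and in 36.5%. CACGTG was in 8 of the 58 windows, or 13.8%, and in 7.26% of all windows. A match of these letters is a description of the window, not evidence of a bound site.

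Hexokinases catalyse the first step, the phosphorylation of glucose. HK2, the inducible form that many tumours use, had the largest rise of the 36 genes. HK2 (chromosome 2, 74833981 to 74893359, plus strand, GENCODE 29 on GRCh38) was at 5.62, 6.90 and 6.29 CPM in wild-type and at 52.85, 58.1 and 52.0 CPM in knockout cells. Every knockout library was thus above every wild-type library. HK2 rose by 3.12 on the log2 scale (SE 0.086), or 8.71-fold, with an edgeR adjusted p of 3.77e-25. HK1, the housekeeping form, was at 193, 188 and 187 CPM in wild-type and at 193, 183 and 183 CPM in knockout cells (log2 fold change -0.02, edgeR adjusted p of 0.683), and its groups overlapped. Per kb of merged exons, the scale used here to compare genes, HK2 was 28.9 times lower than HK1 in wild-type cells and 3.30 times lower in knockout cells. The log2 ratio of HK2 to HK1 differed between the groups by 3.13 (exact permutation test, two-sided p of 0.1, the smallest that 3 against 3 libraries allow). HKDC1, a further hexokinase that is not among the 36, rose by 1.03, from 41.2 ± 3.91 to 84.6 ± 4.22 CPM (SD, n = 3). Of the summed level of HK1, HK2 and HKDC1 per kb, HK2 made up 2.19%, 2.86% and 2.58% in wild-type and 14.6%, 16.7% and 14.8% in knockout libraries, while HK1 went from 73.8% ± 1.15 to 50.6% ± 0.425 (SD, n = 3).

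PKM, GAPDH, LDHA and ENO1, the enzymes of the pathway with the highest counts, were lower in knockout cells. PGK1, the next by count, did not pass (below). GAPDH, the dehydrogenase that yields the pathway's NADH (chromosome 12, 6533927 to 6538374, plus strand), was at 3527, 3505 and 3662 CPM in wild-type and at 2100, 2114 and 2072 CPM in knockout libraries. It fell by 0.77 (SE 0.0348), or 1.70-fold, with an edgeR adjusted p of 4.84e-19. GAPDH is often used as a reference gene, and here its groups did not overlap. PKM, the pyruvate kinase gene whose muscle-type products make the pathway's last ATP, was at 5066, 5185 and 4951 CPM in wild-type and at 3754, 3705 and 3510 CPM in knockout libraries, and fell by 0.47. LDHA, the lactate dehydrogenase subunit that favours lactate formation, was at 2512, 2600 and 2699 CPM and then at 1917, 1924 and 1844 CPM, and fell by 0.46. ENO1, the main enolase, was at 2590, 2575 and 2486 CPM and then at 1993, 1912 and 1867 CPM, and fell by 0.41. For each of these genes all 3 knockout libraries were below all 3 wild-type libraries. GPI, which isomerises glucose 6-phosphate and stands at the branch to the pentose phosphate pathway, was at 977, 1002 and 976 CPM in wild-type and at 601, 579 and 568 CPM in knockout libraries, and fell by 0.76 (SE 0.0384, edgeR adjusted p of 9.25e-18).

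Summed over the 17 enzymes, the level was between 18474 and 18598 CPM in wild-type and between 13860 and 14453 CPM in knockout libraries, so that the knockout mean was 0.769 of the wild-type mean. GAPDH, PKM, LDHA and ENO1, grouped after their values were seen, accounted for 13786 ± 85.6 CPM of the wild-type sum and 9570 ± 246 CPM of the knockout sum (SD, n = 3). The other 13 enzymes summed to 4736 ± 40.8 CPM in wild-type and 4682 ± 115 CPM in knockout libraries, and those groups overlapped. These close sums held genes that moved both ways. GPI, ALDOC and LDHB fell, while HK2, PFKP, PGAM1 and ENO2 rose. Per kb, GAPDH (1196), PKM (591), ENO1 (483) and LDHA (419 CPM per kb) were also the 4 highest of all 36 genes in wild-type cells. The first 3 kept that order in knockout cells. These sums and ranks take ALDOA and LDHB as counted, and the levels of both are uncertain (below). In bulk RNA, fewer cells with a given level and less RNA per cell cannot be told apart.

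For the 2 enzymes beside GAPDH in the pathway no change passed the test. TPI1, triose phosphate isomerase, which acts just before it, was at 862 ± 44.8 CPM in wild-type and 839 ± 34.8 CPM in knockout libraries (SD, n = 3), and PGK1, phosphoglycerate kinase, which acts just after it, was at 1093 ± 29.2 and 1107 ± 26.1 CPM. Neither passed the test (edgeR adjusted p of 0.456 and 0.727). PGAM1, the phosphoglycerate mutase that follows PGK1, was at 490, 479 and 470 CPM in wild-type and at 601, 607 and 586 CPM in knockout libraries, and rose by 0.32 (SE 0.039, edgeR adjusted p of 1.91e-08). Consecutive steps on the way from glyceraldehyde phosphate to pyruvate thus went down (GAPDH), did not pass (PGK1), went up (PGAM1) and went down again (ENO1 and PKM).

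**Figure D2:**
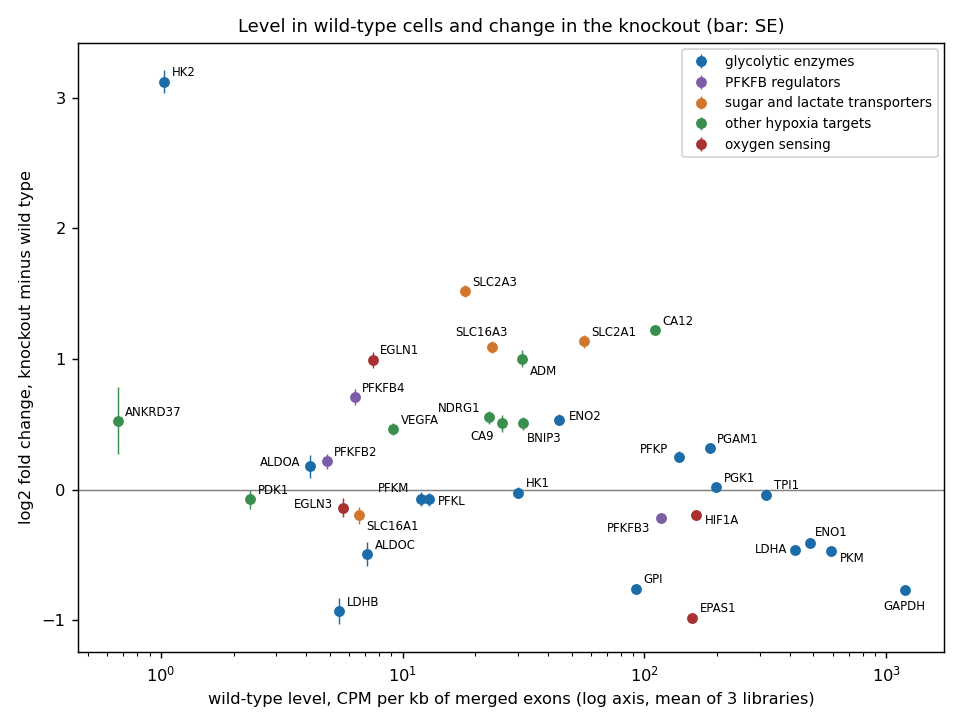
Wild-type level in CPM per kb of merged exons (x axis, log scale, mean of 3 libraries) against the log2 fold change in the knockout (y axis, bar: SE) for the 36 genes, coloured by role. GAPDH, PKM, ENO1 and LDHA, at the right, lie below 0, and HK2, among the lowest in wild-type cells at 1.03 CPM per kb, lies at 3.12.

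Phosphofructokinase, the committed step, is made of 3 isozyme genes. PFKP, the platelet form and the most abundant of the 3 in these cells, was at 696, 645 and 681 CPM in wild-type and at 767, 853 and 791 CPM in knockout libraries. It rose by 0.25 (SE 0.0422, edgeR adjusted p of 4.79e-06), and its groups did not overlap. PFKL, the liver form (115 ± 1.80 and 109 ± 5.25 CPM, SD, n = 3), and PFKM, the muscle form (87.2 ± 4.24 and 83.0 ± 0.684 CPM), did not pass, with edgeR adjusted p of 0.2 and 0.253. Per kb, PFKP made up 84.9% ± 0.689 of the 3 isozymes in wild-type and 87.6% ± 0.391 in knockout libraries.

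Enolase shifted between its forms. ENO2, the neuron-type enolase, a known hypoxia target, was at 196, 183 and 193 CPM in wild-type and at 285, 277 and 269 CPM in knockout libraries, and rose by 0.54 (SE 0.0432, edgeR adjusted p of 1.51e-12), while ENO1 fell. ENO3, the muscle-type form and not among the 36, fell by 0.97, from 98.2 ± 1.73 to 50.1 ± 0.669 CPM (SD, n = 3). Per kb, ENO2 was 8.09% ± 0.336 of the 3 enolases in wild-type and 14.7% ± 0.0815 in knockout libraries. The log2 ratio of ENO2 to ENO1 differed by 0.94 between the groups.

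Few reads were counted in either group for lactate dehydrogenase B, the subunit that favours pyruvate formation. LDHB was at 16.2, 15.9 and 16.8 CPM in wild-type and at 8.515, 8.55 and 8.62 CPM in knockout libraries, and fell by 0.93 (SE 0.1, edgeR adjusted p of 1.3e-09). Per kb it was 1.29% of LDHA and LDHB together in wild-type and 0.933% in knockout cells. In GENCODE 29, 33.4% of the exonic bases of LDHB are shared with a second gene that runs in the same direction, so its level is uncertain. The same holds for aldolase A. ALDOA, usually among the most abundant glycolytic mRNAs, was at only 15.3 to 17.2 CPM in wild-type and 17.2 to 19.7 CPM in knockout libraries, and 42.3% of its exonic bases are shared with a second gene running the same way. ALDOA did not pass (log2 fold change 0.18, edgeR adjusted p of 0.0933). ALDOC, the brain-type aldolase, was at 22.3, 19.6 and 21.0 CPM in wild-type and at 15.6, 15.6 and 13.6 CPM in knockout libraries, and fell by 0.49. Antisense neighbours cover 10.1% of the exonic bases of ALDOC and 14.2% of those of GAPDH, and the strand setting of the counting is not known here, so reads of such neighbours cannot be told apart.

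The isozyme and paralog ratios were compared for 13 pairs. All 13 had knockout and wild-type libraries that did not overlap. Each had an exact permutation p of 0.1, also after Benjamini-Hochberg adjustment over the 13, and the design cannot give a smaller one. Of all single genes tested, 58.9% were separate, and no such share was computed for ratios of other gene pairs. The pairs with ALDOA, LDHB or CA9 carry the uncertainty of level given for those genes.

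**Figure D3:**
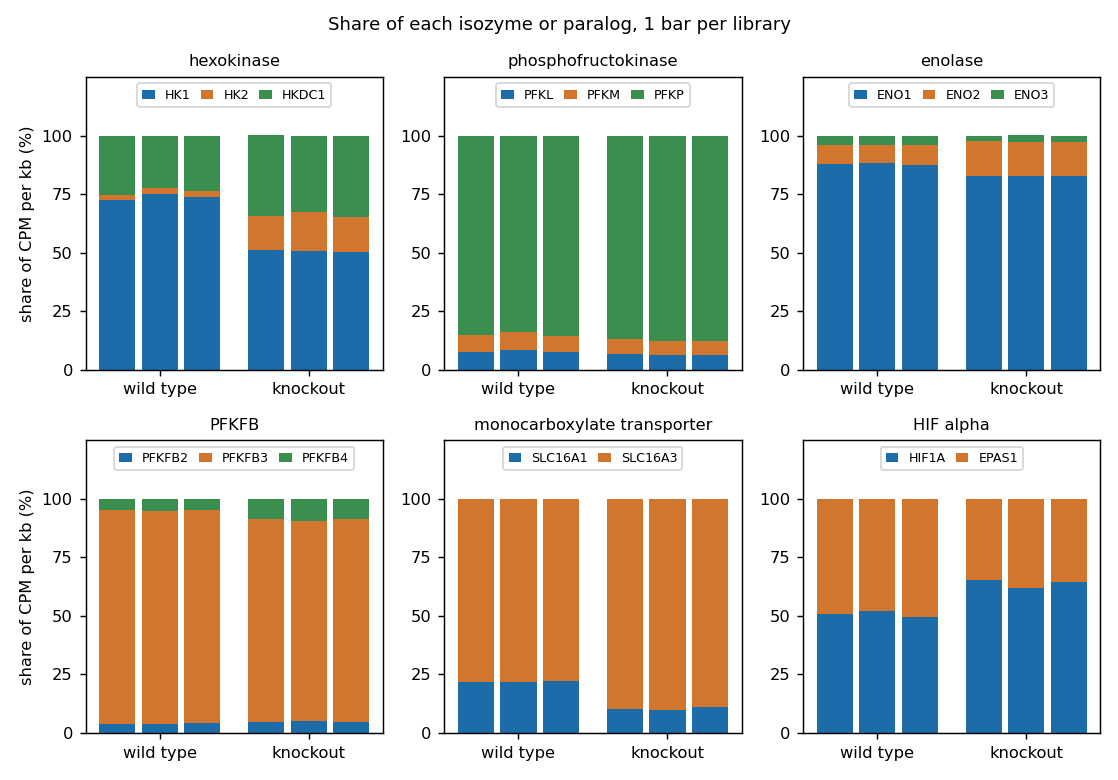
Share of each isozyme or paralog in the summed level per kb (y axis, percent), with 1 bar per library and wild-type libraries on the left of each panel. The HK2 share goes from 2.54% to 15.3% on average, the ENO2 share from 8.09% to 14.7%, and the HIF1A share of the HIF alpha genes from 50.8% to 64.0%.

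PFKFB enzymes make and break fructose 2,6-bisphosphate, the strongest activator of phosphofructokinase. PFKFB3, the form with the highest kinase activity, was the most abundant in these cells, at 719, 718 and 714 CPM in wild-type and at 630, 612 and 610 CPM in knockout libraries, and fell by 0.22 (SE 0.0378, edgeR adjusted p of 1.06e-05). PFKFB4, a known hypoxia target, was at 37.6, 40.4 and 38.3 CPM and then at 62.55, 66.5 and 60.8 CPM, and rose by 0.71 (SE 0.0597, edgeR adjusted p of 4.68e-12). PFKFB2, the heart-type form, rose by 0.22, from 49.5 ± 2.90 to 57.6 ± 2.71 CPM (SD, n = 3). The scarce forms thus rose and the abundant one fell. Per kb, PFKFB3 still made up 91.3% ± 0.242 of the 3 in wild-type and 86.3% ± 0.585 in knockout libraries.

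Glucose enters mainly through the facilitative transporters GLUT1 and GLUT3, encoded by SLC2A1 and SLC2A3. SLC2A1 (chromosome 1, 42925375 to 42959176, minus strand) was at 283, 250.5 and 263 CPM in wild-type and at 538, 626 and 587 CPM in knockout libraries. All knockout libraries were above all wild-type libraries, and SLC2A1 rose by 1.13 (SE 0.0491), or 2.20-fold, with an edgeR adjusted p of 1.25e-19. SLC2A3, the transporter with the higher affinity for glucose (chromosome 12, 7919230 to 7936275, minus strand), was at 113, 104 and 120 CPM in wild-type and at 323, 329 and 314 CPM in knockout libraries. It rose by 1.52 (SE 0.0478), or 2.87-fold, the second largest rise of the 36 after HK2, with an edgeR adjusted p of 1.65e-23. SLC2A14, a near-identical copy of SLC2A3 that is not among the 36, also rose, to 4.04 to 5.02 CPM from 1.75 to 2.52 CPM, so how reads were divided between the pair is uncertain. With a log2 fold change of 1 or more as the bar, 6 of the 36 rose (HK2, SLC2A1, SLC2A3, SLC16A3, CA12 and ADM), beside 7.95% of all genes tested. None of the 36 fell that far, beside 4.44% of all genes tested.

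Lactate leaves through SLC16A3 (MCT4), the export form known to be induced by hypoxia, and moves either way through SLC16A1 (MCT1). SLC16A3 was at 219, 205 and 206 CPM in wild-type and at 427, 478 and 438 CPM in knockout libraries, and rose by 1.09 (SE 0.0453, edgeR adjusted p of 4.08e-20). SLC16A1 was at 36.2, 34.0 and 34.8 CPM and then at 28.9, 31.1 and 31.5 CPM, and fell by 0.20 (SE 0.0685, edgeR adjusted p of 0.0154). This call was lost without wild-type replicate 1 (edgeR adjusted p of 0.0702) and without knockout replicate 1 (0.0744). Per kb, SLC16A3 was 3.54 times SLC16A1 in wild-type and 8.65 times SLC16A1 in knockout cells. Summed over the 4 transporters, the level was between 593 and 652 CPM in wild-type and between 1318 and 1464 CPM in knockout libraries, or 2.22 times the wild-type mean.

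**Figure D4:**
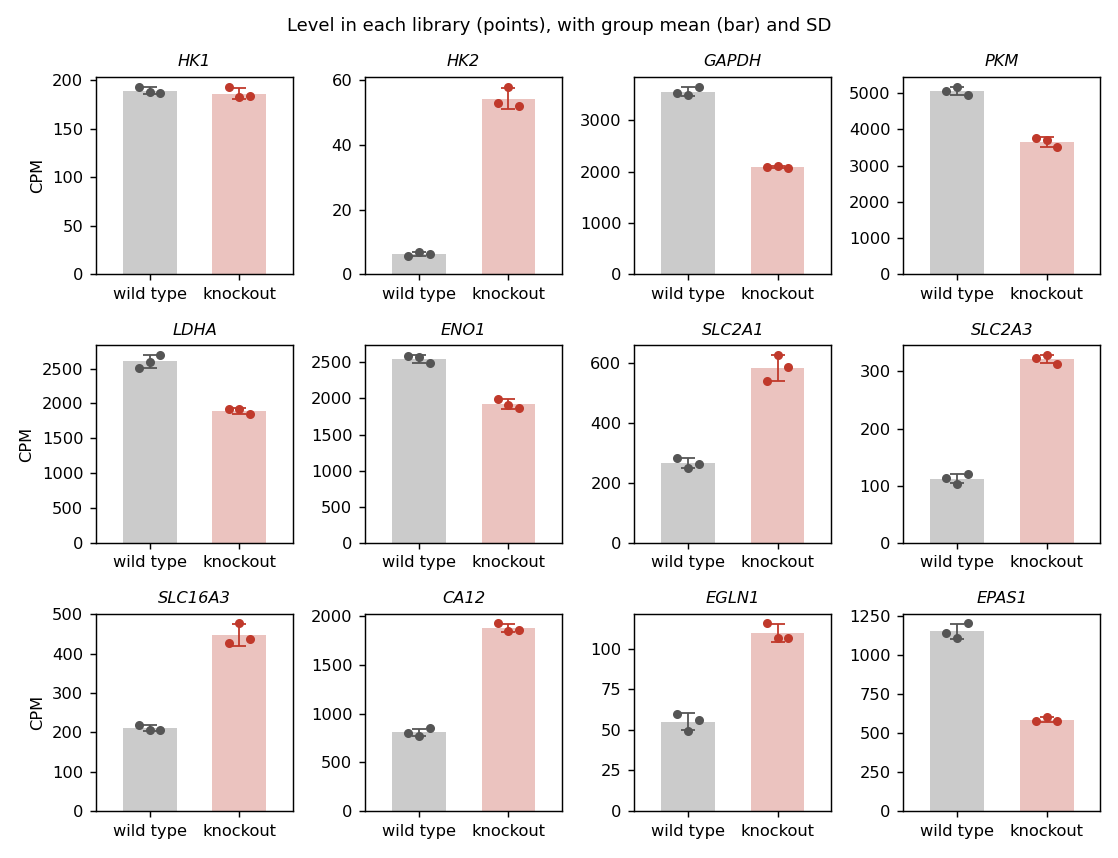
Level in CPM (y axis, from 0) of 12 genes in each library (points), with the group mean as a bar and the SD as an error bar, n = 3 per group. HK1 overlaps between the groups, GAPDH, PKM, LDHA, ENO1 and EPAS1 are lower in each knockout library, and HK2, SLC2A1, SLC2A3, SLC16A3, CA12 and EGLN1 are higher in each.

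Carbonic anhydrases 9 and 12 are membrane enzymes that hydrate carbon dioxide outside the cell and so handle the acid that glycolytic cells export. CA12, the more abundant, was at 803, 769 and 848 CPM in wild-type and at 1930, 1845 and 1863 CPM in knockout libraries, and rose by 1.22 (SE 0.0396), or 2.33-fold, with an edgeR adjusted p of 4.25e-23. CA9, which is among the genes most tightly tied to HIF1A, was at 45.95, 40.1 and 43.6 CPM and then at 58.55, 67.6 and 58.4 CPM, and rose by 0.51 (SE 0.0648, edgeR adjusted p of 4.37e-08). The rise of CA9 was smaller than that of CA12, and the log2 ratio of CA9 to CA12 differed by -0.71 (knockout minus wild type). In GENCODE 29, 38.5% of the exonic bases of CA9 overlap ARHGEF39 on the opposite strand, so its level is uncertain.

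ADM encodes adrenomedullin, a secreted vasodilator peptide. It was at 89.7, 70.9 and 94.4 CPM in wild-type and at 165, 181 and 167 CPM in knockout libraries, and rose by 1.00 (SE 0.0643, edgeR adjusted p of 5.03e-15). VEGFA, the growth factor of blood vessels, was at 141, 121 and 135 CPM and then at 187, 181 and 182 CPM, and rose by 0.46. NDRG1, a stress-responsive gene, rose by 0.56, from 223 ± 10.8 to 327 ± 27.1 CPM (SD, n = 3), and BNIP3, which marks mitochondria for removal, rose by 0.51, from 168 ± 12.6 to 239 ± 7.16 CPM. For each of these 4 genes the groups did not overlap. BNIP3 has 44 listed pseudogenes, whose summed counts were at most 1.14% of its own in any library.

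Among the hypoxia targets, 2 did not pass. ANKRD37, an ankyrin-repeat gene, was near the lower end of detection, at 1.21, 1.85 and 2.07 CPM in wild-type and at 2.54, 2.97 and 1.89 CPM in knockout libraries (log2 fold change 0.53, SE 0.257, edgeR adjusted p of 0.0847). It passed without wild-type replicate 3 (edgeR adjusted p of 0.0435) and without knockout replicate 3 (0.0382), and 35.2% of its exonic bases overlap UFSP2 on the opposite strand. PDK1, the kinase that shuts pyruvate out of the mitochondrion by inactivating pyruvate dehydrogenase, was at 36.7, 33.65 and 34.4 CPM in wild-type and at 29.45, 34.7 and 35.2 CPM in knockout libraries (log2 fold change -0.07, edgeR adjusted p of 0.419). PDK1 therefore stood apart in value from CA12, ADM, NDRG1, BNIP3, CA9 and VEGFA, although that difference was not tested. PDK1 was not alone in this, since EGLN3, a HIF target grouped with oxygen sensing, did not pass either (below).

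The genes that set HIF activity did not move together. EPAS1, which encodes HIF-2 alpha (chromosome 2, 46293667 to 46386703, plus strand), was at 1141, 1108 and 1204 CPM in wild-type and at 573, 603 and 574 CPM in knockout libraries. It fell by 0.98 (SE 0.04), or 1.97-fold, the largest fall of the 36, with an edgeR adjusted p of 2.54e-20. HIF1A, which encodes HIF-1 alpha, was at 829, 855 and 833 CPM and then at 763, 698 and 740 CPM, and fell by 0.19 (SE 0.0396, edgeR adjusted p of 9.93e-05). Both alpha subunit mRNAs were thus lower in each knockout library while most of the hypoxia targets listed above were higher. Per kb, EPAS1 and HIF1A were close in wild-type cells, at 158 and 163 CPM per kb, and EPAS1 was 1.78 times lower than HIF1A in knockout cells.

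EGLN1 (PHD2), the main oxygen sensor of the EGLN family, was at 59.5, 49.2 and 55.9 CPM in wild-type and at 116, 107 and 106 CPM in knockout libraries, and rose by 0.99 (SE 0.0584), or 1.99-fold, with an edgeR adjusted p of 5.14e-16. EGLN3 (PHD3), the member usually most induced by hypoxia, was at 43.9, 35.55 and 45.8 CPM and then at 36.3, 40.0 and 38.0 CPM (log2 fold change -0.14, edgeR adjusted p of 0.123), and its groups overlapped. EGLN3 passed without wild-type replicate 2, with a log2 fold change of -0.24 and an edgeR adjusted p of 0.00484. The log2 ratio of EGLN3 to EGLN1 differed by -1.13 (knockout minus wild type, exact permutation p of 0.1).

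Further genes of the same pathways were listed to set the 36 in context. Their counts stand beside the 27.2% of all genes tested that were higher and the 26.3% that were lower. Of 34 further hypoxia targets, 33 were tested, 20 rose and 7 fell, at a list median of 0.22 on the log2 scale. The insulin-like growth factor binding protein gene IGFBP3 rose by 1.46, from 542 ± 52.5 to 1494 ± 128 CPM (SD, n = 3), the stanniocalcin gene STC2 by 1.35, and ANGPTL4, an inhibitor of lipoprotein lipase, by 1.17. The chemokine receptor gene CXCR4 had a log2 fold change of 3.81 (SE 0.601) from near zero. CXCR4 passed the filter on low counts only through its knockout libraries. Its place among the 20 that rose is thus in part set by that filter. It was at 0.158, 0 and 0.04995 CPM in wild-type and at 1.30, 1.08 and 0.934 CPM in knockout libraries. Among the 7 that fell, TFRC fell by 0.84, from 631 ± 18.4 to 353 ± 7.70 CPM (SD, n = 3), P4HA1 by 0.30 and DDIT4 by 0.25. Of 13 partners and regulators of HIF, 12 were tested, 4 rose and 1 fell. CITED2, which competes with HIF for its coactivators and is a HIF target, rose by 0.91, from 28.8 ± 2.84 to 54.2 ± 4.0 CPM. HIF1AN, the asparaginyl hydroxylase that blocks HIF, rose by 0.17, and RBX1 and ELOB, parts of the ubiquitin ligase that removes HIF alpha, rose by 0.26 and fell by 0.22.

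Of 19 other glycolytic isozymes, 12 were tested, 3 rose and 3 fell, beside 27.2% higher and 26.3% lower among all genes tested. Besides HKDC1 and ENO3, ADPGK, a glucokinase that uses ADP, rose by 0.70, and BPGM, which makes 2,3-bisphosphoglycerate, fell by 0.60. At the entry of pyruvate into mitochondria, 13 genes were tested, 1 rose and 5 fell. The kinase genes PDK3 and PDK4 fell by 1.22 and fell by 0.96, the latter from 151 ± 17.3 to 77.5 ± 10.6 CPM (SD, n = 3), PDK2 fell by 0.40, and PDHA1, the subunit those kinases act on, fell by 0.59. PDK1, grouped above with the other hypoxia targets, was the one of the 4 kinase genes that did not pass. That grouping does not mean that the other kinase genes are not HIF targets. Of 15 other hexose and monocarboxylate transporters, 11 were tested, 5 rose and 4 fell. SLC16A7, a monocarboxylate transporter, fell by 1.505, and the hexose transporters SLC2A12, SLC2A8 and SLC2A6 rose by 1.13, 0.76 and 0.60.

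**Figure D5:**
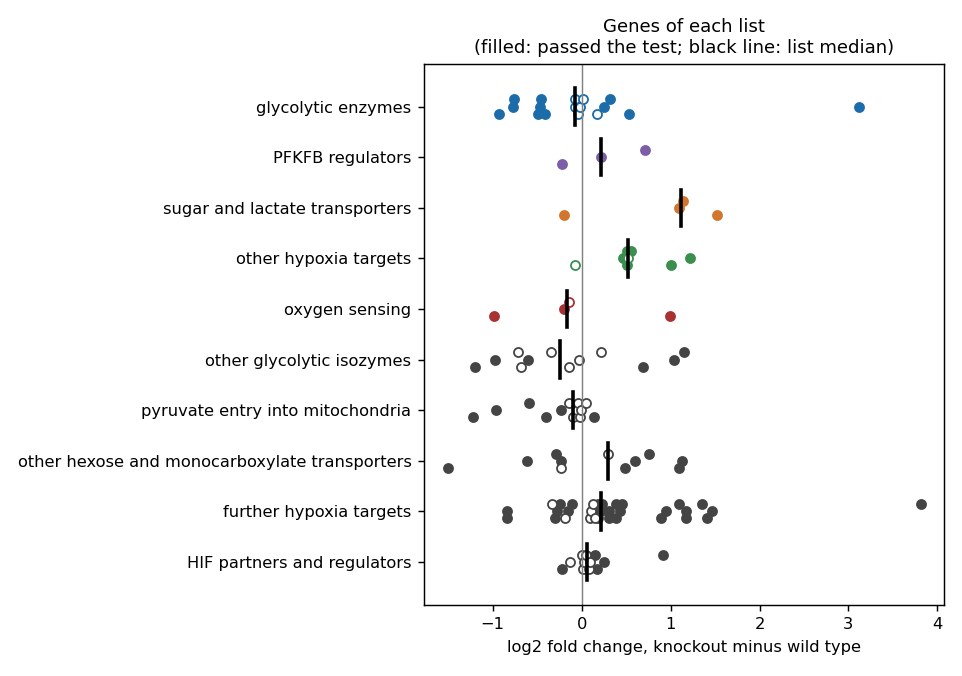
Log2 fold change in the knockout (x axis) of each gene tested in the 5 role groups and in 5 further lists of the pathways, 1 point per gene; filled points passed edgeR's test, and the black line is the list median. The medians are 1.11 for the transporters, 0.52 for the other hypoxia targets, 0.22 for further hypoxia targets and -0.07 for the glycolytic enzymes.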

How the data were processed

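RNA of 6 A549 libraries, made with an Illumina TruSeq stranded kit per the labels, was analysed from the deposited table of whole-number counts over 60617 genes. The submitters' processing notes name GRCh38 and the tools edgeR 3.32.1, featureCounts 2.0.1, Trim Galore 0.6.6 and STAR 2.7.0d. What each tool did, the annotation, the strand setting and the rule for multi-mapping reads were not given in the sources used here. Columns were matched to samples by library name, and samples to groups by title. Library totals ran from 27238817 to 40675628.

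Genes were filtered with filterByExpr, TMM-scaled and tested in R 4.3.3 with edgeR 4.0.16 (quasi-likelihood F test, genotype alone in the model), with Benjamini-Hochberg adjustment over 18505 genes and a threshold of 0.05. Each SE is the absolute log2 fold change divided by the square root of its F value. Levels per kb divide CPM by merged exon length in GENCODE 29, which may differ from the authors' annotation and includes bases that few transcripts use. Isozyme ratios used log2 CPM with a prior count of 2. The alternatives were DESeq2 1.42.0, limma-voom (limma 3.58.1), other scaling, filters and prior counts, a replicate block, a fold change built into the test and leaving out each library. Members and lists were chosen with earlier results of these data known. Named genes are all members, YTHDF1 and, from each of 9 other lists, up to 4 genes with the smallest adjusted p and a mean of at least 5 CPM; a few genes that this rule or the marker lists hold are not reported here. SLC2A14, CXCR4, TFRC, P4HA1, DDIT4, TXNIP, MIF, MYC and single cell type markers were named after their values were seen. Replicates within a group differed beyond sampling noise, with a chi-square of 4.20 to 6.09 for each degree of freedom.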

Additional observations from a re-analysis of the deposited data

How the results depend on the processing

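Directions and calls were compared over 13 settings for each of the 36 genes. Of the 27 genes that passed, 26 kept their direction and passed in each of those 13, which leave aside the fold change built into the test, and the exception was SLC16A1 (above). Signs changed only for genes that did not pass: HK1 was at a log2 fold change of 0.0022 with library size only, and leaving out 1 library moved TPI1 between -0.063 and 0.0011, PGK1 between -0.0071 and 0.031, and PDK1 between -0.12 and 0.0031. With a fold change of 1.5 built into edgeR's test, 2585 genes passed in place of 9893, 1573 higher and 1012 lower, and of the 36 genes 8 were higher and 4 lower. Those were HK2, SLC2A1, SLC2A3, SLC16A3, CA12, ADM, EGLN1 and PFKFB4, and GPI, GAPDH, LDHB and EPAS1. For the enzymes this left 1 higher and 3 lower, and for the other hypoxia targets 2 higher. With the replicate block, 9703 genes passed, and the counts of members called were 16 higher and 11 lower, as without it, and no call among the 36 genes changed. Same-numbered libraries of the 2 groups did not deviate together (r between -0.026 and 0.0079), so the numbers were not taken to pair them. Leaving out 1 library gave between 9059 and 9486 genes, with 16 to 17 members higher and 10 to 12 lower. The median of the 3 PFKFB genes was 0.27 without wild-type replicate 3. At this depth genes near 2 CPM, such as ANKRD37, have a wide SE.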

Other observations

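Genes of the routes that branch from glycolysis went both ways, as did all genes tested, of which 27.2% were higher and 26.3% lower. Of 8 pentose phosphate genes, 4 rose and 3 fell. TKT, transketolase, fell by 0.56 from 1307 ± 32.4 to 887 ± 25.1 CPM (SD, n = 3), while RPIA, ribose 5-phosphate isomerase, rose by 0.85. H6PD, an enzyme of the endoplasmic reticulum, fell by 0.35. Of 10 glycogen genes, 3 rose and 6 fell. The glycogen phosphorylase genes PYGL and PYGB fell by 1.07 and fell by 0.65, and PPP1R3C, a glycogen-targeting phosphatase subunit, fell by 0.79. Of 16 genes of the TCA cycle, 4 rose and 6 fell. FH, fumarate hydratase, fell by 1.06 from 73.2 ± 0.780 to 35.1 ± 2.41 CPM, CS, citrate synthase, fell by 0.58, and SUCLG2 and SUCLG1, subunits of succinyl-CoA ligase, fell by 0.72 and fell by 0.59.

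Of 10 listed regulators that answer to sugar or belong to the MYC network, 4 rose and 3 fell. Among all genes tested, 27.2% were higher and 26.3% lower. MYC itself did not pass (log2 fold change -0.06, edgeR adjusted p of 0.257), although its groups did not overlap. MLX, a partner of the glucose sensors, rose by 0.71, MLXIP, one of those sensors, fell by 0.28, MAX rose by 0.31 and SREBF1 fell by 0.35. TXNIP, an inhibitor of glucose uptake induced by those sensors, lay below the CPM minimum of the naming rule and was at 0.633, 0.8905 and 0.2498 CPM in wild-type and at 6.75, 6.57 and 7.32 CPM in knockout libraries, a rise of 3.61 (edgeR adjusted p of 4.49e-14). MIF, a listed hypoxia target, had at most 0.111 CPM in any library and was not tested. In GENCODE 29, 32.2% of its exonic bases are shared with a gene running the same way and 61.9% with MIF-AS1 on the other strand, so this value does not show that MIF is not expressed.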
